A study of Mus musculus with 8 samples.

Results

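The genes described here import cystine, build glutathione, recycle it, use it against peroxides and export it, in macrophages sorted from mouse tumors. They were chosen by name and role, with earlier results of these data known, as the rows of the deposited table for Slc7a11, Slc3a2, Gclc, Gclm, Gss, Gsr, Gpx1, Gpx4 and Abcc1. All 9 were found among the 35275 genes of the table. All 9 were also among the 11019 genes with a mean of at least 1 FPKM over the 8 libraries, which were the genes tested. FPKM, is a fragment count scaled by gene length and by library size.

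The study compared tumor-associated macrophages from hosts of both Atg5 genotypes. The hosts were female mice on a C57BL/6J background, aged 6 to 8 weeks, all carrying floxed Atg5 alleles (Atg5flox/flox) and all implanted under the skin of the flank with 100000 MC38 cells, a mouse colon carcinoma line. Tumors were collected on day 21, and CD11b+ F4/80+ Ly6G- Ly6C- cells were sorted. The Atg5 WT group had 4 mice without Cre, and the Atg5 KO group had 4 mice that also carried LysMcre, in which Cre is made from the myeloid lysozyme locus, so that deletion was directed to myeloid cells of the host and not to the implanted line.

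Glutathione is a tripeptide of glutamate, cysteine and glycine, and is the main small thiol of animal cells. Cystine enters through a transporter made of Slc7a11 and Slc3a2 and is reduced to cysteine, which glutamate-cysteine ligase joins to glutamate in the rate-limiting step. Glutathione synthetase adds glycine, peroxidases oxidize the product while they reduce peroxides, and glutathione reductase restores it with NADPH. In macrophages the pathway is known for protection from the oxidants these cells make, and several of its genes are known targets of the transcription factor NRF2, which is held in check by KEAP1 and freed when the autophagy receptor p62 accumulates.

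The labels were checked first on Atg5 and Lyz2. Atg5 had 12.8 to 16.2 FPKM in the libraries labelled Atg5 KO against 3.50 to 6.73 in Atg5 WT, higher in all 4 and not lower, with an adjusted p of 0.0987 in limma and of 0.00481 with the mouse number as a block. This whole-gene value counts exons that the deletion leaves in place, and so is no check of it. Lyz2 had 2808 to 3467 FPKM against 4436 to 6268 in Atg5 WT, with an adjusted p of 0.985 in limma. The groups did not overlap for Lyz2, the locus that carries the Cre, and its lower values are on the side that the labels give the Cre. Single exons of Atg5 were not examined, and the cause of its higher value was not tested. Because the deletion was thus not checked, those 4 are named KO-labelled libraries here, and all directions depend on that label. The libraries held 14799546 to 25555195 fragments assigned to genes. Mouse 1 of either group stood apart from the other libraries, with a summed FPKM of 13 fibroblast markers of 233.6 in the Atg5 WT mouse and 426.3 in the KO-labelled mouse, against 36.0 to 77.6 in the other 6. Macrophage markers were present in all 8 libraries. All 12 passed the minimum, and Adgre1, which encodes the F4/80 of the sort, had 94.6 to 155.9 FPKM. Their levels were not even. Itgam, which encodes CD11b, had 243.2 to 268.7 FPKM in Atg5 WT and 290.1 to 349.1 in the KO-labelled group. No other of the 12 separated the groups, where 1.15% of all genes did not overlap with higher values. C1qa had 1277 and 1283 FPKM in KO-labelled mice 1 and 2 and 1708 to 2285 in the other 6. The summed FPKM of 9 monocyte markers was 1025 to 1480 in Atg5 WT and 1261 to 1646 in the KO-labelled group.

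The levels of the 9 genes spanned more than 2 orders of magnitude on the FPKM scale. Gpx1, with a mean of 578.3 FPKM over the 8 libraries, was above 99.1% of the genes tested. Slc3a2 followed at 188.8 and Gpx4 at 127.6 FPKM. Abcc1, Gsr and Slc7a11 lay close together at 26.8, 26.1 and 24.6 FPKM, and their order changed from library to library. Gclc had 16.3, Gclm 6.11 and Gss, the enzyme of the last step of synthesis, 2.69 FPKM. Apart from Abcc1, Gsr and Slc7a11, every neighbouring pair in this order kept it in all 8 libraries, although the ranges of Slc7a11 and Gclc met in the KO-labelled group. The peroxidase and heavy-chain genes were therefore far above the genes of synthesis, per length of transcript.

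None of the 9 genes differed between the groups after adjustment over all genes tested. No member had an adjusted p below 0.05 in limma on log2(FPKM + 1), and each had an adjusted p of 0.999, while 0% of all genes were called. The signs were the same under each scaling tried, 5 members having a positive and 4 a negative difference. At an unadjusted p below 0.05 in limma, 3 members, Gclm, Gsr and Abcc1, were higher in the KO-labelled libraries, where 1.20% of all genes were, and no member was lower, where 0.826% of all genes were. Limma's voom on recovered fragments gave the same 3 and also called none. With median-of-ratios scaling and with quantile normalization 2 members, Gclm and Gsr, were higher at that level, and Abcc1 had an unadjusted p of 0.0844 and of 0.0533 in limma. Over all genes the split at that level turned from 132 higher and 91 lower to 107 and 141 with median-of-ratios scaling and to 107 and 129 with quantile normalization. The median difference of the members was 0.20 on the log2 scale, against 0.029 for all genes tested. Single libraries moved it, to 0.037 without KO-labelled replicate 2, where all genes had 0.039, to 0.077 without KO-labelled replicate 1, to 0.098 without Atg5 WT replicate 4, to 0.33 without KO-labelled replicate 3 and to 0.36 without KO-labelled replicate 4.

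A block for the mouse number left every member uncalled in limma. In that fit 0.00908% of all genes were called, which was Atg5 alone, and the smallest adjusted p of a member was 0.362, for Abcc1. At an unadjusted p below 0.05, 4 members were higher (Slc7a11, Gclm, Gsr and Abcc1) where 5.19% of all genes were, and Slc3a2 was lower where 3.62% of all genes were. Without both mouse 1 libraries, limma again called no member and 0.00908% of all genes, and Gclm, Gsr and Abcc1 were higher at an unadjusted p below 0.05 where 3.43% of all genes were. No member was lower there, where 2.18% of all genes were.

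**Figure D1:**
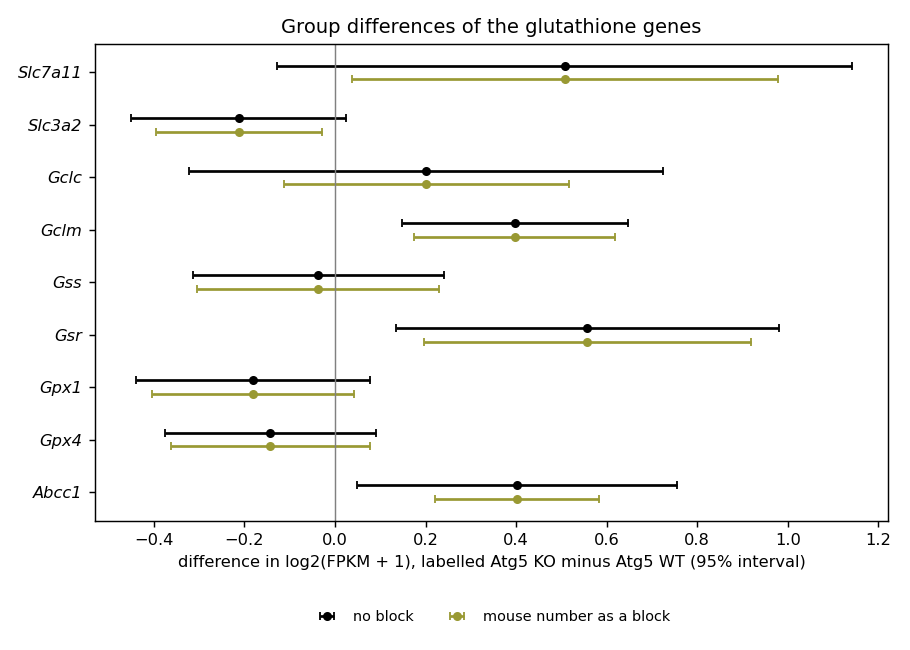
Differences in log2(FPKM + 1) between the KO-labelled and Atg5 WT libraries for the 9 genes, with 95% intervals from limma without a block (black) and with the mouse number as a block (olive), n = 4 per group. The intervals of Gclm, Gsr and Abcc1 lie above 0 in both fits and those of Gclc, Gss, Gpx1 and Gpx4 cross 0 in both, before any adjustment over genes.

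Slc7a11 is the light chain that exchanges cystine for glutamate (ENSMUSG00000027737, chromosome 3, 50364936 to 50443613, minus strand of mm10). It had 16.7, 20.1, 20.4 and 19.2 FPKM in Atg5 WT mice 1 to 4 and 23.9, 53.9, 25.4 and 17.4 FPKM in KO-labelled mice 1 to 4. The Atg5 WT libraries were tightly grouped, KO-labelled mouse 2 stood far above all others, and KO-labelled mouse 4 lay within the Atg5 WT range. The means were 19.1 ± 1.68 (SD, n = 4) and 30.1 ± 16.2 (SD, n = 4), a ratio of 1.58. The log2(FPKM + 1) difference was 0.51 ± 0.28 (SE), with an unadjusted p of 0.105 in limma and of 0.0377 with the block. Without KO-labelled replicate 2 it was 0.19, so that library set most of the size.

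The Slc7a11 promoter is shown because stress-responsive control of this gene is known to run through the transcription factor ATF4, which binds C/EBP-ATF response elements. The window of 250 bases before to 50 after the RefSeq start (GRCm38.p6, chr3:50443564-50443863, minus strand) was searched on both strands for TGATGNAA, the core of that element, and for TGACNNNGC, the core of the antioxidant response element that NRF2 binds. It holds TGATGNAA at 2 places, in opposite orientations, whose first bases are 66 and 47 bases before the start, and they are in capitals here.
Slc7a11: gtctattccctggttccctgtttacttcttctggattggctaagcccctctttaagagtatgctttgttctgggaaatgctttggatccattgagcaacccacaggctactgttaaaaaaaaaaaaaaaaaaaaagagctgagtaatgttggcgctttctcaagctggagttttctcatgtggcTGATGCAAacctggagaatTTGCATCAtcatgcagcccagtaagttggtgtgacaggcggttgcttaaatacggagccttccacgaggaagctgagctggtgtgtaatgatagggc
Of 32851 RefSeq promoters of this length, 3.97% hold TGATGNAA and 12.4% hold TGACNNNGC. Promoters were found for 6 of the 9 genes (Slc7a11, Slc3a2, Gclm, Gss, Gpx1 and Gpx4, with 4 starts for Gpx4), and among them Slc7a11 alone holds TGATGNAA. Atf4, which encodes the factor ATF4, had 157.3 ± 18.4 FPKM in the Atg5 WT group and 139.7 ± 29.8 FPKM in the KO-labelled group (SD, n = 4 each). That is a level of RNA, and the activity of ATF4 was not tested.

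Slc3a2, the heavy chain that carries Slc7a11 and other amino acid transporters to the membrane (ENSMUSG00000010095, chromosome 19, 8706882 to 8723369, minus strand), went the other way. It had 185.9, 220.5, 216.9 and 187.9 FPKM in Atg5 WT mice 1 to 4 and 170.9, 195.2, 169.9 and 162.9 FPKM in KO-labelled mice 1 to 4. Each KO-labelled library was below the Atg5 WT library of the same number, but the groups overlapped through KO-labelled mouse 2. The labels state no pairing by number, and the share of all genes lower in every such comparison was not computed. The means were 202.8 ± 18.4 and 174.7 ± 14.1 FPKM (SD, n = 4 each). On the log2(FPKM + 1) scale the difference was -0.21 ± 0.11 (SE), with an unadjusted p of 0.0742 in limma and of 0.0280 with the block.

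The light chain thus had a larger share of the heavy chain's level in the KO-labelled libraries. The ratio of Slc7a11 to Slc3a2 FPKM within a library was 0.0900, 0.0913, 0.0942 and 0.102 among Atg5 WT mice 1 to 4. It was 0.140, 0.276, 0.150 and 0.106 in KO-labelled mice 1 to 4. All 4 KO-labelled ratios were above all 4 Atg5 WT ratios, the closest being 0.106 in KO-labelled mouse 4 and 0.102 in Atg5 WT mouse 4. How many other gene pairs separate the groups in this way was not computed. The pair was chosen with earlier results known, so the separation is a description only. The mean log2 ratio was higher by 0.74, and by 0.47 without KO-labelled replicate 2.

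Of 12 epithelial and carcinoma markers, 2 had a mean of at least 1 FPKM. The summed FPKM of the 12 was 44.6 to 76.5 for Atg5 WT and 36.8 to 71.2 for the KO-labelled group. Nearly all of it came from Cdh1 (34.7 to 71.9 FPKM), while Krt8 was at most 0.0895 and Epcam at most 1.82 FPKM, and Krt20 was at 0 in all 8. The sum of 12 neutrophil markers was 43.3 to 100.4 FPKM for Atg5 WT and 74.7 to 155.8 for the KO-labelled group. It was highest in KO-labelled mouse 2, where Mmp9 gave 81.9 of it and Mmp8 was also highest, at 11.0 FPKM. S100a8 and S100a9 were instead highest in KO-labelled mouse 1, at 10.2 and 5.43 FPKM, against 6.94 and 1.67 in KO-labelled mouse 2. Ly6g was at most 0.127 FPKM in any library. The part of these other transcripts in the Slc7a11 values was not tested. In such bulk libraries a gene's value is an average over the sorted cells, and fewer cells of a type cannot be told apart from less RNA per cell.

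**Figure D2:**
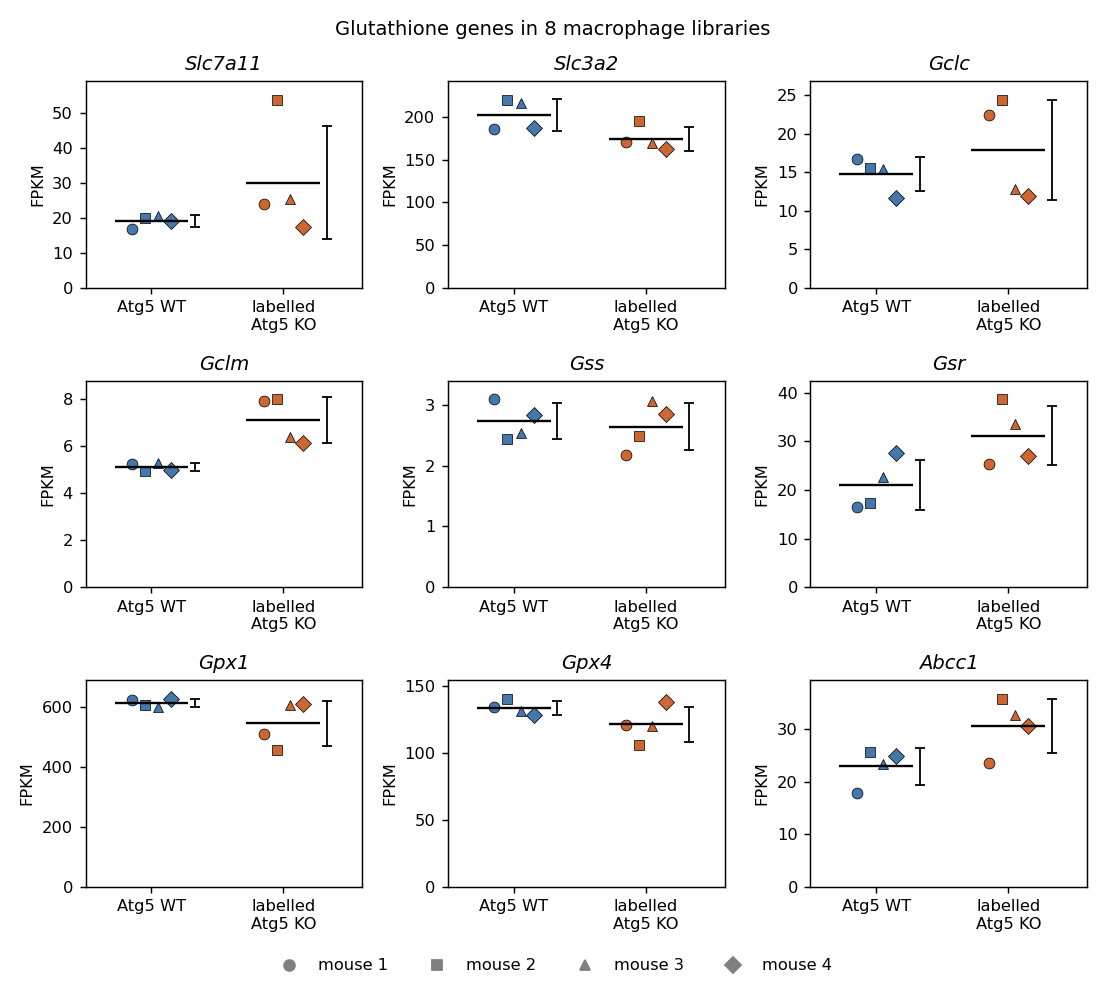
FPKM of each of the 9 genes in every library, Atg5 WT in blue and KO-labelled in orange, with a marker shape per mouse number, the group mean as a line and the SD as a bar (n = 4 per group). Gclm is the gene whose groups do not meet, with 4.96 to 5.27 against 6.14 to 7.99 FPKM, and Slc7a11 shows the single high library, KO-labelled mouse 2 at 53.9 FPKM.

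Gclm, the modifier subunit that raises the efficiency of glutamate-cysteine ligase (ENSMUSG00000028124, chromosome 3, 122245557 to 122269984, plus strand), was the member with the clearest separation. It had 5.25, 4.96, 5.27 and 4.997 FPKM in Atg5 WT mice 1 to 4 and 7.90, 7.99, 6.37 and 6.14 FPKM in KO-labelled mice 1 to 4. The lowest KO-labelled library was above the highest Atg5 WT library, and the Atg5 WT values varied by 3.17% (SD over mean). It was the only member whose groups did not overlap, where 1.15% of all genes did not overlap with higher values and 0.590% with lower ones. The means were 5.12 ± 0.163 and 7.10 ± 0.977 FPKM (SD, n = 4 each), a ratio of 1.39. The log2(FPKM + 1) difference was 0.40 ± 0.11 (SE), with an unadjusted p of 0.00552 and an adjusted p of 0.999 in limma. These levels rest on 358 to 977 fragments per library.

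The Gclm promoter is shown because this gene is a textbook target of NRF2. In the RefSeq window (GRCm38.p6, chr3:122245307-122245606, plus strand) TGACNNNGC occurs in the reverse orientation, with its first base 134 bases before the start, in capitals here.
Gclm: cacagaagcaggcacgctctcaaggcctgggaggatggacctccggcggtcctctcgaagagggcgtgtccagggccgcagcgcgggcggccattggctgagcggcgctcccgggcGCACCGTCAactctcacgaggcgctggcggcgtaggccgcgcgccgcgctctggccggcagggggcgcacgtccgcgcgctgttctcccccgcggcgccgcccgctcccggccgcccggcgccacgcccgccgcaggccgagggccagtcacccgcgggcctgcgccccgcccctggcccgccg
The window is rich in G and C (79.7%), against 44.7% for that of Slc7a11. No other of the 6 genes with a promoter holds TGACNNNGC in its window. The match describes letters and not a site of binding. Nfe2l2, which encodes NRF2, had 173.6 ± 41.6 FPKM in the Atg5 WT group and 166.8 ± 47.1 FPKM in the KO-labelled group (SD, n = 4 each). That is a level of RNA, and the activity of NRF2 was not tested.

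Gclc, the catalytic subunit of the same ligase (ENSMUSG00000032350, chromosome 9, 77754535 to 77794485, plus strand), did not separate the groups. It had 16.7, 15.5, 15.4 and 11.6 FPKM in Atg5 WT mice 1 to 4 and 22.4, 24.4, 12.9 and 11.8 FPKM in KO-labelled mice 1 to 4. KO-labelled mice 1 and 2 were above every Atg5 WT library, and KO-labelled mice 3 and 4 were within the Atg5 WT range. On the log2(FPKM + 1) scale the difference was 0.20 ± 0.23 (SE), with an unadjusted p of 0.408 in limma and a 95% interval of -0.32 to 0.72. It was 0.037 with KO-labelled replicate 2 left out and 0.077 with KO-labelled replicate 1 left out.

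The catalytic subunit was above the modifier in every library. The ratio of Gclm to Gclc FPKM was 0.315, 0.319, 0.343 and 0.429 among Atg5 WT mice 1 to 4 and 0.352, 0.327, 0.495 and 0.518 in KO-labelled mice 1 to 4. The ratios of the groups overlapped, and the mean log2 ratio was higher by 0.25 in the KO-labelled libraries. It was 0.14 without KO-labelled replicate 4, 0.17 without KO-labelled replicate 3 and 0.36 without KO-labelled replicate 2. The excess of Gclm was thus shared by Gclc in KO-labelled mice 1 and 2 and not in mice 3 and 4.

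Gss, glutathione synthetase (ENSMUSG00000027610, chromosome 2, 155563181 to 155592810, minus strand), was the lowest of the 9. It had 3.09, 2.45, 2.54 and 2.84 FPKM in Atg5 WT mice 1 to 4 and 2.17, 2.49, 3.06 and 2.85 FPKM in KO-labelled mice 1 to 4. The KO-labelled range enclosed most of the Atg5 WT range. The log2(FPKM + 1) difference was -0.037 ± 0.12 (SE), with an unadjusted p of 0.770 in limma and a 95% interval of -0.31 to 0.24. The sign turned without both mouse 1 libraries (0.072). Acss2, on the opposite strand, overlaps it, and 6.68% of the exon bases of Gss in GENCODE M21 are also exon bases of Acss2. The sources used here give no strand setting for the counting, so reads of both genes there cannot be told apart. Acss2 had a mean of 1.18 FPKM.

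Gsr, glutathione reductase (ENSMUSG00000031584, chromosome 8, 33652523 to 33698163, plus strand), had a difference close to that of Slc7a11, with less spread in the KO-labelled group. It had 16.4, 17.4, 22.7 and 27.5 FPKM in Atg5 WT mice 1 to 4 and 25.4, 38.6, 33.6 and 27.0 FPKM in KO-labelled mice 1 to 4. The groups overlapped because Atg5 WT mouse 4 was above KO-labelled mice 1 and 4. The means were 21.0 ± 5.15 and 31.2 ± 6.11 FPKM (SD, n = 4 each), a ratio of 1.48. On the log2(FPKM + 1) scale the difference was 0.56 ± 0.19 (SE), with an unadjusted p of 0.0152 in limma and of 0.00727 with the block.

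Abcc1, the ATP-driven pump MRP1, which exports glutathione, its disulfide and its conjugates (ENSMUSG00000023088, chromosome 16, 14361558 to 14475737, plus strand), was higher in each KO-labelled library than in the Atg5 WT library of the same number. It had 17.8, 25.6, 23.4 and 24.9 FPKM in Atg5 WT mice 1 to 4 and 23.6, 35.7, 32.7 and 30.6 FPKM in KO-labelled mice 1 to 4. KO-labelled mice 2 to 4 were above every Atg5 WT library, and the mouse 1 library was the lowest of each group. The labels state no pairing by number, and the share of all genes higher in every same-number comparison was not computed. The means were 22.9 ± 3.56 and 30.6 ± 5.16 FPKM (SD, n = 4 each), a ratio of 1.34. The log2(FPKM + 1) difference was 0.40 ± 0.16 (SE), with an unadjusted p of 0.0300 in limma and of 0.000828 with the block. Without both mouse 1 libraries it was 0.41, and its groups no longer overlapped, where 10.3% of all genes did not overlap with higher values and 4.43% with lower ones.

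Gpx1 and Gpx4 are selenoproteins, in which a TGA codon inside the reading frame is read as selenocysteine and not as a stop. Gpx1 reduces hydrogen peroxide and small organic peroxides, and Gpx4 reduces lipid hydroperoxides in membranes and is the enzyme that holds back ferroptosis. The codons are shown, in capitals with 12 bases on each side, because the same recoding is needed for both proteins and a level of RNA says nothing of it. They come from GENCODE M21 transcripts on GRCm38, at chromosome 9, 108339451 to 108339453, codon 47 of Gpx1, and at chromosome 10, 80054737 to 80054739, codon 73 of a Gpx4 transcript, both on the plus strand.
Gpx1: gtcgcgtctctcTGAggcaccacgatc
Gpx4: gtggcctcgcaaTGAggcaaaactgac
The 3 coding Gpx4 transcripts with this codon place it at codons 33, 73 and 129, since they begin at different starts. The deposited value of Gpx4 joins them.

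Neither peroxidase differed beyond its spread, and both had lower means in the KO-labelled libraries. Gpx1 (ENSMUSG00000063856, chromosome 9, 108339080 to 108340338) had 621.7, 604.1, 598.9 and 625.0 FPKM in Atg5 WT mice 1 to 4 and 507.3, 455.6, 606.1 and 607.7 FPKM in KO-labelled mice 1 to 4. The Atg5 WT values varied by 2.10% (SD over mean), KO-labelled mice 1 and 2 were below all of them, and KO-labelled mice 3 and 4 were among them. On the log2(FPKM + 1) scale the difference was -0.18 ± 0.11 (SE), with an unadjusted p of 0.149 in limma.

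Gpx4 (ENSMUSG00000075706, chromosome 10, 80047166 to 80056439) had 134.3, 140.4, 131.6 and 128.8 FPKM in Atg5 WT mice 1 to 4 and 121.0, 106.4, 120.3 and 138.5 FPKM in KO-labelled mice 1 to 4. KO-labelled mice 1 to 3 were below every Atg5 WT library, and KO-labelled mouse 4 was above all but Atg5 WT mouse 2. The log2(FPKM + 1) difference was -0.14 ± 0.10 (SE), with an unadjusted p of 0.201 in limma and a 95% interval of -0.38 to 0.090. FPKM is a share of each library's fragments, so a gain in other genes lowers these values. Without KO-labelled replicate 2 the difference was -0.099 for Gpx1 and -0.081 for Gpx4. The sign of both peroxidases stayed negative with TPM, median-of-ratios scaling and quantile normalization.

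The KO-labelled libraries differed from each other in which genes of the pathway stood out. Of all 8 libraries, KO-labelled mouse 2 was highest for Slc7a11, Gclc, Gclm, Gsr and Abcc1 and lowest for Gpx1 and Gpx4. Relative to the Atg5 WT mean on the log2(FPKM + 1) scale it was at 1.45 for Slc7a11, 0.88 for Gsr, 0.70 for Gclc, 0.63 for Abcc1 and 0.55 for Gclm, and at -0.43 for Gpx1. KO-labelled mouse 1 shared the high ligase genes (0.58 for Gclc and 0.54 for Gclm) and the low Gpx1 (-0.27), but was near the Atg5 WT mean for Abcc1 (0.053). KO-labelled mouse 3 was high for Gsr (0.68) and Abcc1 (0.51) with Gclc at -0.18. KO-labelled mouse 4 had smaller deviations in the same 2 genes, 0.38 and 0.41. Gclm was therefore the gene on which all 4 KO-labelled libraries differed from the Atg5 WT libraries in the same direction without overlap.

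**Figure D3:**
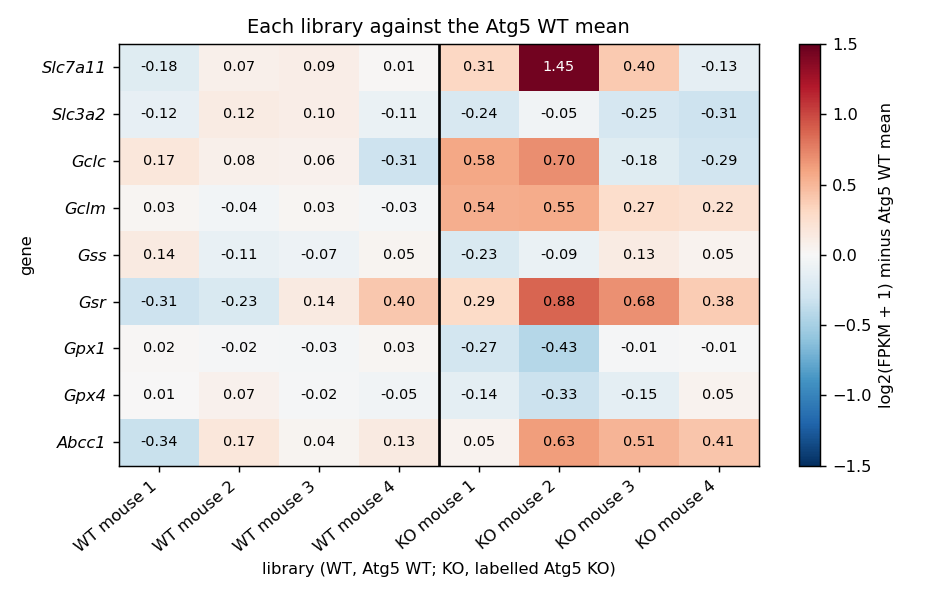
Deviation of each library from the Atg5 WT mean of each gene in log2(FPKM + 1), red for higher and blue for lower. KO-labelled mouse 2 carries the strongest deviations (1.45 for Slc7a11 and -0.43 for Gpx1), and the ligase genes Gclc and Gclm stand out together in KO-labelled mice 1 and 2.

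The genes whose levels over the 8 libraries were most like those of each member were described by Pearson's r of log2(FPKM + 1), among the genes tested. For Slc7a11 they were F3, the coagulation tissue factor (r = 0.982), and Il23a, a cytokine subunit (r = 0.979). For Slc3a2 they were Tmem132a (r = 0.996) and Gadd45b, a stress-induced gene (r = 0.976). For Gclc they were Errfi1, a feedback inhibitor of EGF receptor signaling (r = 0.989), and Slfn8 (r = 0.987), and for Gclm they were Snapc3 (r = 0.976) and Usp6nl (r = 0.968). For Gsr they were Gadd45a (r = 0.953) and Sort1, a sorting receptor (r = 0.950), and for Abcc1 they were Ddx23 (r = 0.957) and Afg3l1 (r = 0.956). Gpx1 was most like Tmem147 (r = 0.988) and Mrps11 (r = 0.984), Gpx4 was most like Rnf215 (r = 0.980) and Rab3il1 (r = 0.978), and Gss was most like Mtg2 (r = 0.966) and Ndufc1 (r = 0.925). These values rest on 8 libraries that share the mouse 1 difference and were the highest of 11019 genes, so they are descriptions of this set of libraries.

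Around the 9 genes, 89 further genes of glutathione use, breakdown, carriers, NADPH supply, selenoprotein synthesis and control were listed, and 62 of them passed the minimum of 1 FPKM. None was called by limma. At an unadjusted p below 0.05 in limma, 2 were higher (Mgst1 and Esd), where 1.20% of all genes were. None was lower, where 0.826% of all genes were. With the block, 6 were higher at that level, where 5.19% of all genes were, again with none called. In that fit 3 were lower, where 3.62% of all genes were. The median difference of the 62 genes was 0.031 on the log2 scale, against 0.029 for all genes tested.

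Among 14 glutathione transferases tested, 9 had positive and 5 negative differences, while under median-of-ratios scaling 7 had positive and 7 negative ones. Mgst1, a microsomal transferase, had 20.3 ± 3.13 FPKM in the Atg5 WT group and 25.4 ± 1.65 FPKM in the KO-labelled group (SD, n = 4 each), with an unadjusted p of 0.0290 in limma. Gstt1 had 3.62 ± 0.688 and 2.76 ± 0.464 FPKM, and Gstt3 had 3.37 ± 0.561 and 2.76 ± 0.685. Esd, which hydrolyses S-formylglutathione, had 63.6 ± 9.29 and 82.6 ± 13.6 FPKM (SD, n = 4 each), with an unadjusted p of 0.0318 in limma. Glo1 and Hagh, the glyoxalases, had 12.2 ± 2.21 and 19.9 ± 0.799 FPKM in the Atg5 WT group and 12.7 ± 2.32 and 18.8 ± 3.00 FPKM in the KO-labelled group.

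All 7 tested genes of NADPH supply had positive differences, with a median of 0.12 on the log2 scale against 0.029 for all genes tested. However, 5 of 7 did so under median-of-ratios scaling and 6 of 7 with quantile normalization. The share of all genes with a positive difference was not computed. Me2, a mitochondrial malic enzyme, had 23.3 ± 3.05 and 27.7 ± 2.72 FPKM, Pgd of the pentose phosphate pathway had 109.8 ± 7.51 and 122.9 ± 12.8, and G6pdx, its first enzyme, had 37.2 ± 2.56 and 40.9 ± 2.80 (SD, n = 4 each). None had an unadjusted p below 0.05 in limma. Glrx, glutaredoxin of the cytosol, had 69.2 ± 6.83 and 88.7 ± 23.5 FPKM, highest in KO-labelled mouse 2 at 118.1, while Glrx3 had 35.7 ± 8.08 and 38.7 ± 4.48 and Glrx2 had 4.19 ± 0.372 and 4.52 ± 0.405. Of the other carriers, Abcc4 had 6.38 ± 0.299 and 7.37 ± 0.694 FPKM, Abcc5 had 7.93 ± 0.638 and 8.55 ± 1.00, and Slc25a40, a carrier of the mitochondrial membrane, had 1.63 ± 0.701 and 1.93 ± 0.560.

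In the breakdown list 7 of 9 tested genes had negative differences, and 8 of 9 under median-of-ratios scaling and with quantile normalization. Lap3, an aminopeptidase, had 47.2 ± 4.39 and 39.9 ± 4.41 FPKM, and Dpep3, a dipeptidase, had 6.03 ± 0.631 and 4.91 ± 0.838 (SD, n = 4 each). The groups barely missed each other for Lap3, at 44.25 FPKM or more in Atg5 WT and 44.17 or less in KO-labelled libraries. Over all genes, 0.590% did not overlap with lower values. Ggct, which opens gamma-glutamyl amino acids, went the other way with 1.25 ± 0.200 and 1.64 ± 0.342. Of the other peroxidases only Gpx3 and Gpx8 passed the minimum. Gpx3 had 3.02 ± 0.299 and 3.65 ± 0.466 FPKM. Gpx8 had 4.61 FPKM in Atg5 WT mouse 1, 7.32 FPKM in KO-labelled mouse 1 and 0.265 to 1.78 FPKM in the other 6. It was thus high in the same 2 libraries as the summed fibroblast markers, though not every one of these was. Their part in it was not tested.

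The genes that make selenoproteins had a median difference of 0.030 on the log2 scale, and of -0.023 with quantile normalization, with Secisbp2 at 7.17 ± 0.556 and 7.74 ± 0.918 FPKM, Trnau1ap at 14.2 ± 1.12 and 13.7 ± 1.69 and Sephs1 at 6.64 ± 0.970 and 6.36 ± 0.699 (SD, n = 4 each). Of 8 regulators, 7 had negative differences, and 6 with TPM. Mafk, a small MAF partner of NRF2, had 32.1 ± 4.80 and 27.0 ± 5.94 FPKM, and Nfe2l1, a relative of NRF2, had 43.4 ± 4.86 and 46.7 ± 1.99 (SD, n = 4 each). For amino acid entry other than through the cystine exchanger, Slc7a5, another partner of Slc3a2, had 14.5 ± 1.31 and 17.0 ± 3.93 FPKM, and Slc1a5 had 50.2 ± 6.59 and 48.2 ± 2.42.

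**Figure D4:**
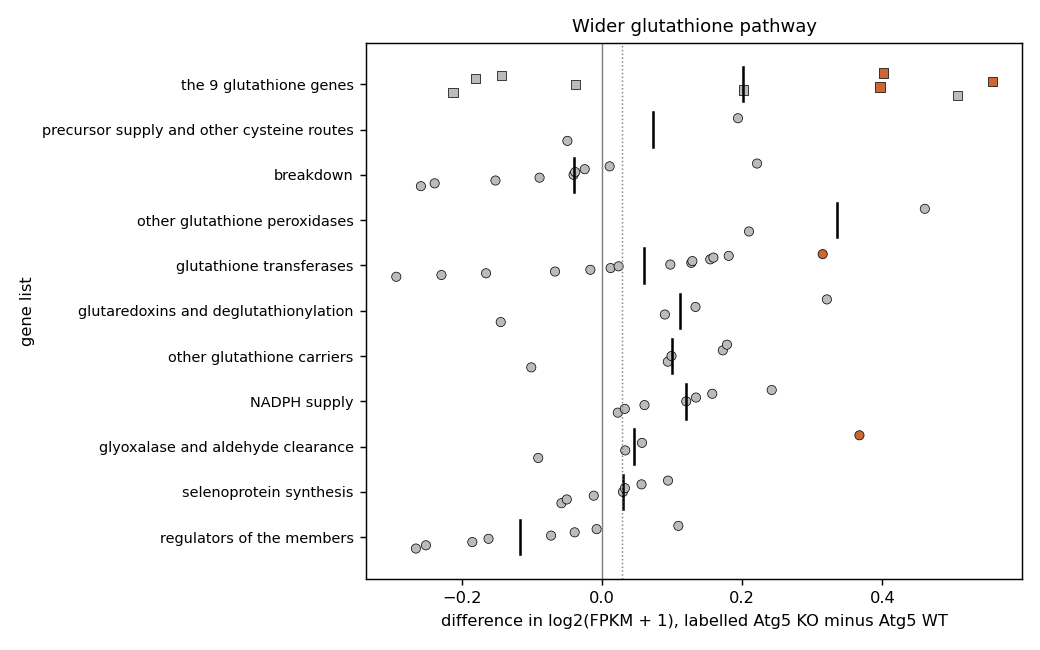
Differences in log2(FPKM + 1) of the 9 genes (squares) and of 62 further genes of glutathione metabolism (circles), by list, with the list median as a bar, 0 as a solid line and the median of all genes tested (0.029) dotted. Orange marks an unadjusted p below 0.05 in limma, seen for Gsr, Abcc1, Gclm, Mgst1 and Esd.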

How the data were processed

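RNA sequencing was done on macrophages sorted from 8 MC38 tumors, 4 per genotype. Per the submitters' processing notes, CASAVA, STAR and the mm10 build were used, without versions or roles. The sources used here name no counting tool, strand setting or annotation release. The authors deposited FPKM values with gene lengths. The product of FPKM and gene length was divided by a unit fitted for each library, starting from its smallest nonzero product. The result was whole for 100% of values, zeros included (within 0.01 fragments). All fragment numbers given here rest on that fitted unit.

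Columns were matched to samples by name and groups taken from the labels. Log2(FPKM + 1) was fitted with limma 3.58.1 in R 4.3.3 with a trend of variance on level, as a two-sided test, for 11019 genes with a mean of at least 1 FPKM, with Benjamini-Hochberg adjustment at 0.05 over all of them. This scale understates the change of low genes. The test was run on simulated fragments with independent libraries, the same dispersion for every gene and no difference shared by the mouse 1 libraries. That check therefore does not cover the mouse 1 difference of the real libraries. The members, lists and motifs were chosen with earlier results of these data known. From each pathway list up to 3 genes with the smallest p were named, and for each member the 2 most correlated genes, leaving out pseudogenes and unnamed models. Nfe2l2 and the marker genes Mmp9, Mmp8, C1qa, Krt20, Fn1, Chil3, Sparc and Mmp2 were named outside that rule, after their values were seen. List symbols absent from the table were matched by gene ID.

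Mouse numbers are shared by the groups. Deviations of same-numbered libraries from their group means correlated over genes at 0.841, 0.208, 0.458 and 0.471 for mice 1 to 4. Correlations between libraries of different numbers were not computed. Mouse 1 stood apart in both groups, which alone can make the deviations of the other libraries correlate across groups, whatever their number. Whether the other mice match by number was therefore not tested. The fit was also run with the number as a block. The labels name separate mice and do not state a pairing. Alternatives were the pseudocount, the minimum, 3 scalings, voom on recovered fragments (added after seeing the data), the block, and leaving out libraries. Count models planned for deposited counts were not run on FPKM, and voom was used on the recovered fragments instead.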

Additional observations from a re-analysis of the deposited data

Results flagged for a closer look

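Of 26 sets of 4 libraries examined for a library far from the rest (the 9 genes, Atg5, Lyz2 and 2 ratios, in each group), 1 stood out. Atg5 was at 6.73 FPKM in Atg5 WT mouse 1 and at 3.50 to 3.93 FPKM in the other 3 Atg5 WT libraries. Chance alone gives about 1 such set in 20. None of the 9 glutathione genes met this criterion, Slc7a11 in KO-labelled mouse 2 included.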

How the results depend on the processing

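No member was called under any of the settings tried, the smallest adjusted p being 0.128 for Abcc1 in limma's voom with the replicate block. The block changed no call of a member or of a listed pathway gene. All members except Gss kept their sign under every setting. The Gss difference was -0.037, and 0.072 without both mouse 1 libraries. It lay between -0.091 and 0.027 when single libraries were left out. The count of all genes called was 0, and 1 with median-of-ratios scaling, with quantile normalization, with the replicate block and without both mouse 1 libraries. It was 8 with voom and the block, and 0 to 1 when single libraries were left out. The number of members whose groups did not overlap was 1, 2 with quantile normalization (Gclm and Gpx1) and 2 without both mouse 1 libraries (Gclm and Abcc1). Over all genes the groups did not overlap for 127 with higher and 65 with lower values, for 104 and 83 with quantile normalization, for 1131 and 488 without both mouse 1 libraries and for 1022 and 382 without Atg5 WT replicate 1. When any other single library was left out, 154 to 270 genes had higher and 87 to 204 lower values. The number of members without overlap was 1 to 3 when single libraries were left out, always including Gclm. Gsr joined it without Atg5 WT replicate 4, Abcc1 without KO-labelled replicate 1 and Slc3a2 without KO-labelled replicate 2. Slc7a11 and Gpx4 joined it without KO-labelled replicate 4. Over the same fits Slc7a11 lay between 0.19 and 0.72, Gsr between 0.45 and 0.69, Abcc1 between 0.29 and 0.52 and Gclm between 0.34 and 0.45. The causes were not tested. The planned count models of edgeR and DESeq2 were not run on FPKM, and voom on the recovered fragments took their place. With 4 mice per group, intervals were wide, the 95% interval of Slc7a11 running from -0.13 to 1.14.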
